A study of Zea mays with 6 samples.

Results

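Stem was compared with root in well-watered maize, from 2 of the 6 libraries of the series, stem control and root control. Both came from ZD619, a maize variety whose plants are labelled as wild type at the 2 to 3 leaf stage. Both were kept at 80% of the relative soil water content (RSWC). The methods of the study give that stage for the choice of plants in each pot. Its drought began later, and its picture of ZD619 shows a later leaf stage. The labels may thus not give the stage at sampling. Total RNA was taken from several plants per tissue, polyadenylated RNA was sequenced, and the other libraries were leaf control at 80% of RSWC and leaf, stem and root drought at 35% of RSWC. No group held more than 1 library, so no value here has an error between replicates, no p-value was computed, and only large differences are described. The values are FPKM, the fragments on a gene scaled by its transcript length and by the mapped fragments. Stem and root came from separate tables that were normalized apart, so each pair of columns was brought to the same median over genes above 1 FPKM in both, and a difference is the log2 of the stem value over the root value after 1 FPKM was added to each. A positive log2 value means a higher level in stem, and adding 1 FPKM understates the change of low genes. A gene was called at a difference of at least 4-fold, a log2 value of 2 or more in either direction. Levels are printed as deposited, and no ratio is given where 1 of the libraries is listed at 0, since a 0 can be a failed estimate.

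The stem of a grass seedling is largely a roll of leaf sheaths around a short axis that carries the shoot apex. Its outer layers are green, are sealed by a waxy cuticle and can fix carbon. Roots are heterotrophic, live on sugar imported from the shoot, and carry the transporters, root hairs and water channels through which mineral ions and water enter the plant. Both organs hold many cell types, and in bulk RNA fewer cells of a type and less RNA per cell cannot be told apart.

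Of 109715 gene identifiers, 29202 were above 1 FPKM in at least 1 of the 2 control libraries and were counted. Of these, 2726 (9.33%) were at least 4-fold higher in stem than in root, and 1541 (5.28%) were at least 4-fold higher in root. The stem-high genes also reached larger differences. At 64-fold 277 genes were higher in stem, against 50 that were higher in root. The split depended on the scaling. With both columns brought to the same FPKM sum, 2180 genes were stem-high and 2268 root-high, so that 49.0% of the calls were stem-high, against 63.9% with the median scaling. That scaling moved the median log2 value of all counted genes to -0.50, against -0.09 with the median scaling. The number of genes above 1 FPKM was 25278 in stem control and 25900 in root control. The 100 most abundant genes held 24.5% of all FPKM in stem control and 15.8% in root control, and read counts were not used here. The plot of stem against root levels shows that the light-harvesting genes lay along its upper left edge and the dehydrin and heat shock genes along its lower right.

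**Figure D1:**
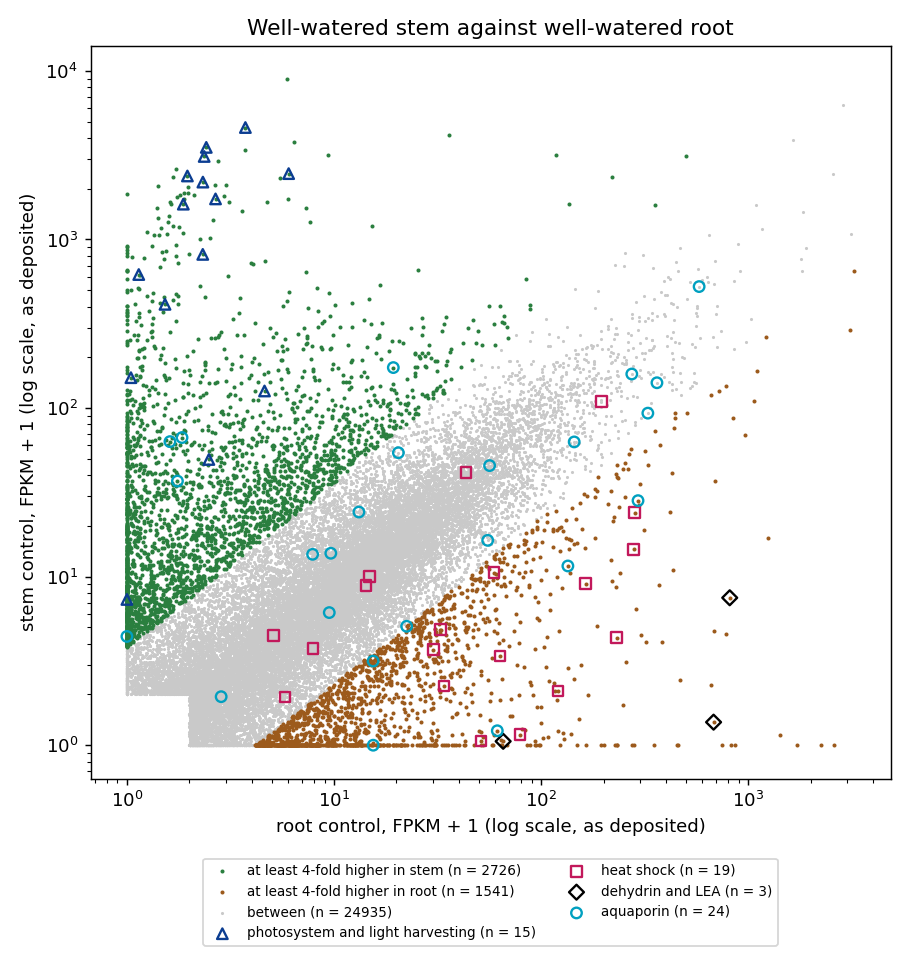
Level of each counted gene in root control (x axis) and in stem control (y axis), both as deposited FPKM plus 1 on log scales, 1 point per gene. Green points are the 2726 stem-high genes, brown points the 1541 root-high genes and grey points the rest. Open symbols mark 4 gene lists: all 15 photosystem and light-harvesting genes lie among the green points, and 12 of 19 heat shock genes and all 3 dehydrin and LEA genes among the brown points.

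The tissue labels were checked against marker genes. All 15 photosystem and light-harvesting genes were stem-high, with a summed level of 23796 FPKM in stem control and 22.5 FPKM in root control. The wax gene gl1 (GRMZM2G114642) had 95.3 FPKM in stem control and 0.115 FPKM in root control. Among root markers, rth3 (GRMZM2G377215), which encodes a COBRA-like protein needed for root hair elongation, had 2.20 FPKM in stem control and 13.02 FPKM in root control, a log2 value of -2.01 that is just past the 4-fold limit. The root initiation gene rtcs (GRMZM2G092542) was listed at 0 in stem control and had 2.00 FPKM in root control. The iron-phytosiderophore transporter ys1 (GRMZM2G156599) had 1.86 FPKM in stem control and 4.97 FPKM in root control, which is under 4-fold. Other defining markers were absent. The shoot meristem gene kn1 (GRMZM2G017087) was listed at 0 in all 6 libraries, the nicotianamine synthase genes nas1 and nas2 were under 0.1 FPKM in both control libraries, and no identifier matched gl8 or rth1.

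One property of the root libraries bears on every root-high stress gene below. The 3 counted dehydrin and LEA genes, which are known to rise in tissue that loses water, summed to 161 FPKM in root drought and 1553 FPKM in root control, so the library labelled as drought held less. In leaf the same sum was 253 FPKM in leaf drought and 6.33 FPKM in leaf control, and in stem it was 9.37 FPKM in stem drought and 6.92 FPKM in stem control. Other genes had the opposite order in root. ZmMAPKKK19, ZmMAPKKK20 and ZmMAPKKK21, kinase genes that the study called drought-responsive in root, had 2.60, 1.46 and 3.52 FPKM in root control. In root drought they had 12.9, 9.48 and 29.4 FPKM. The study called these genes from the same 2 root libraries, so their order follows from that choice. The deposited FPKM sum over all genes was 544251 in root control and 908668 in root drought. What set the dehydrin and LEA levels apart in the library labelled root control was not tested. Whether the labels of the 2 root columns are exchanged, or whether the well-watered root was stressed when it was taken, cannot be told from these libraries, and root control and root drought mean the libraries so labelled throughout. For this reason the lists and the main genes are given beside the same comparison of stem drought with root drought. It shares no library with the control pair but differs from it in treatment and is not a replicate of it. Since it uses root drought, the doubt about the root labels covers it too. Under drought, 29632 genes were counted by the same limit, and of these 10.2% were stem-high and 8.70% root-high. The drought counts of the lists below instead cover the members counted in the control pair. Of the 29202 genes counted there, 2928 were stem-high and 2312 root-high in the drought pair. Of the genes called in the control pair, 66.7% of the stem-high and 45.5% of the root-high kept their call in the drought pair.

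Among genes with a name, photosynthesis genes held the largest differences in favour of stem. The antenna proteins of the light-harvesting complexes collect light for the photosystems. Of the 15 stem-high genes with a name and the largest log2 values, 5 are named for them as cab or lhcb genes. The gene lhcb3 (GRMZM2G155216) had 3517 FPKM in stem control and 1.42 FPKM in root control, a log2 value of 10.63. Its levels were 3713 FPKM in stem drought and 0 in root drought, and it had 523 FPKM in leaf control. The levels of cab-m1 (GRMZM2G351977) were 3107 FPKM in stem control and 1.36 FPKM in root control (log2 10.48), and it was listed at 0 in root drought. These genes were close to absent from root in both treatments and were higher in the stem table than in the leaf table. Cab-m7 (GRMZM2G402936) was the third most abundant gene of stem control at 4613 FPKM, with 2.73 FPKM in root control and 1343 FPKM in leaf control. The minor antenna gene lhcb6 (GRMZM2G092427) had 2189 FPKM in stem control and 1.33 FPKM in root control, and lhcb5 (GRMZM2G149428) had 1739 FPKM in stem control and 1.68 FPKM in root control. Of the 15 members of the list, 11 had a higher deposited level in stem control than in leaf control, a comparison across separately normalized tables.

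The other genes of the photosystem list followed the same pattern. The photosystem I subunit gene psaN (GRMZM2G080107) had 2379.9 FPKM in stem control and 0.959 FPKM in root control (log2 10.36). The photosystem I subunit genes psaH (GRMZM2G451224) and psad1 (GRMZM2G024150) had log2 values of 8.81 and 8.18. The gene psbs1 (GRMZM2G077333), whose product switches excess light energy into heat, had 815 FPKM in stem control and 1.32 FPKM in root control. The gene named cp29 and psb29 (GRMZM2G033885) had 1619 FPKM in stem control and 0.872 FPKM in root control, and psa6 (GRMZM2G012397) had 3396 FPKM in stem control and 2.71 FPKM in root control. The members with the lowest levels in stem control were PSBQ1 (GRMZM2G021617), PSA3 (GRMZM2G051403) and PSA2 (GRMZM2G021687). PSBQ1 had 6.32 FPKM in stem control and was listed at 0 in root control, and PSA3 and PSA2 had log2 values of 4.44 and 4.91. The median log2 value of the 15 genes was 9.17, against -0.09 over all counted genes, and it was 9.04 in the drought pair, where all 15 were stem-high again. Ferredoxin I, FDX1 (GRMZM2G122337), which carries electrons from photosystem I, had 1275 FPKM in stem control and 0.578 FPKM in root control, with 1269.5 FPKM in stem drought and 0 in root drought.

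Genes of carbon fixation were stem-high as well. In C4 plants such as maize, carbon is first fixed by phosphoenolpyruvate carboxylase in mesophyll cells and then released beside Rubisco in the bundle sheath. Of 11 counted genes of this list 9 were stem-high and none was root-high, against 9.33% and 5.28% over all counted genes. The median log2 value of the list was 6.29. Ppdk1 (GRMZM2G306345), the pyruvate orthophosphate dikinase that regenerates the acceptor, had 2604 FPKM in stem control and 0.721 FPKM in root control, and its log2 value of 10.67 was the largest of any named gene. Its levels under drought were 1709 FPKM in stem drought and 1.88 FPKM in root drought, and leaf control had 8124 FPKM. The carboxylase gene pep1 (GRMZM2G083841) had 851 FPKM in stem control and 0.541 FPKM in root control, with 3735 FPKM in leaf control. Both were therefore far above root in stem, while their deposited levels in stem were below those of leaf. The malic enzyme gene me3 (GRMZM2G085019) had 403 FPKM in stem control and 4.69 FPKM in root control (log2 6.29), and the malate dehydrogenase gene mdh6 (GRMZM2G129513) had 330.3 FPKM in stem control and 12.95 FPKM in root control (log2 4.72). For the Rubisco small subunit gene rbcS (GRMZM2G113033) the levels were 1885 FPKM in stem control and 0.886 FPKM in root control (log2 10.08). The other small subunit gene, ssu1 (GRMZM2G098520), and the Rubisco activase gene rca1 (GRMZM2G162200) had log2 values of 8.85 and 9.10. The Calvin cycle genes gpa1 (GRMZM2G337113) and gpb1 (GRMZM5G845611), which encode the A and B subunits of chloroplast glyceraldehyde-3-phosphate dehydrogenase, had log2 values of 10.14 and 9.63. Smaller ratios were seen for pck2 (GRMZM5G870932), a phosphoenolpyruvate carboxykinase, at 50.4 FPKM in stem control and 10.1 FPKM in root control (log2 2.36), and for PPDK2 (GRMZM2G097457) at 5.90 FPKM in stem control and 0.135 FPKM in root control (log2 2.68). Of these, pck2 was within 4-fold in the drought pair, at 10.4 FPKM in stem drought and 17.6 FPKM in root drought, and PPDK2 was too, at 1.46 FPKM in stem drought and 0 in root drought. The phosphoenolpyruvate translocator genes ppt1 (GRMZM2G047404) and ppt2 (GRMZM2G103047) stayed within 4-fold, with log2 values of -0.53 and -0.99, and were root-high in the drought pair at -3.04 and -2.52. The chlorophyll synthesis gene oy1 (GRMZM2G419806), a subunit of magnesium chelatase, had 145 FPKM in stem control and 0.375 FPKM in root control (log2 6.83), and les22 (GRMZM2G044074), a uroporphyrinogen decarboxylase, had 78.5 FPKM in stem control and 6.31 FPKM in root control (log2 3.59). The third gene of that list, elm1 (GRMZM5G861678), which makes the phytochrome chromophore, was within 4-fold at 9.80 FPKM in stem control and 3.79 FPKM in root control.

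Several genes of the shoot surface were stem-high too. The cuticle is built from cutin and from waxes that epidermal cells export. The lipid transfer protein gene plt1 (GRMZM2G101958) had 1628 FPKM in stem control and 0.627 FPKM in root control (log2 10.07), and plt2 (GRMZM2G010868) had 1887 FPKM in stem control and 0.962 FPKM in root control (log2 10.02). In leaf control plt1 had 152 FPKM and plt2 had 75.5 FPKM, so their deposited levels in the stem table were more than 10-fold above those in the leaf table. The wax gene gl1 repeated this order, with 95.3 FPKM in stem control, 0.115 FPKM in root control and 6.67 FPKM in leaf control. The elongase gene fae1 was within 4-fold, so that 3 of 4 counted wax and lipid transfer genes were stem-high, against 9.33% of all counted genes. The same 3 were stem-high in the drought pair. The outer cell layer genes ocl1, ocl3 and ocl5 encode homeodomain factors of the epidermis. The gene ocl5 had 7.54 FPKM in stem control and was listed at 0 in root control, and ocl1 and ocl3 had log2 values of 2.60 and 2.31.

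Among the regulators of shoot patterning 6 of 24 counted genes (25%) were stem-high and 3 (12.5%) root-high, against 9.33% and 5.28% over all counted genes. The list median of 0.47 fell to about 0 when both columns were scaled to the same FPKM sum. Between the drought libraries, 5 of the 24 were stem-high and 7 root-high, against 2928 and 2312 of the 29202 genes counted in the control pair. Among them were rs2, YAB5, YAB11 and ocl5 in stem and lg2, lg3 and lg4 in root. The genes ocl1 and ocl3 were within 4-fold there at 0.84 and 1.55. The gene rs2 (GRMZM2G403620), a MYB factor that keeps KNOX genes silent in leaves, had 20.97 FPKM in stem control and 0.444 FPKM in root control (log2 4.02). The YABBY genes YAB5 and YAB11, of a family that marks lateral organs of the shoot, had 10.8 and 9.78 FPKM in stem control and 0.169 and 0.302 FPKM in root control. The opposite direction was seen for KNOX genes, the class of homeobox genes first known from kn1. The gene lg3 (GRMZM2G087741) was listed at 0 in stem control and had 19.4 FPKM in root control, and it was listed at 0 in stem drought and had 11.8 FPKM in root drought. For lg4 (GRMZM2G094241) the levels were 0.0368 FPKM in stem control and 11.8 FPKM in root control, and 0 FPKM in stem drought and 10.2 FPKM in root drought. Both genes take their names from mutants that disturb the leaf blade and sheath boundary, and here they were measured in root and near or at 0 in stem and leaf. The bZIP gene lg2 (GRMZM2G060216) was also root-high at 0.585 FPKM in stem control and 5.87 FPKM in root control (log2 -2.02). The KNOX genes knox6 and knox7 were alike in both tissues, with log2 values of 0.31 and -0.16.

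The strip plot of gene lists sets these groups beside the others.

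**Figure D2:**
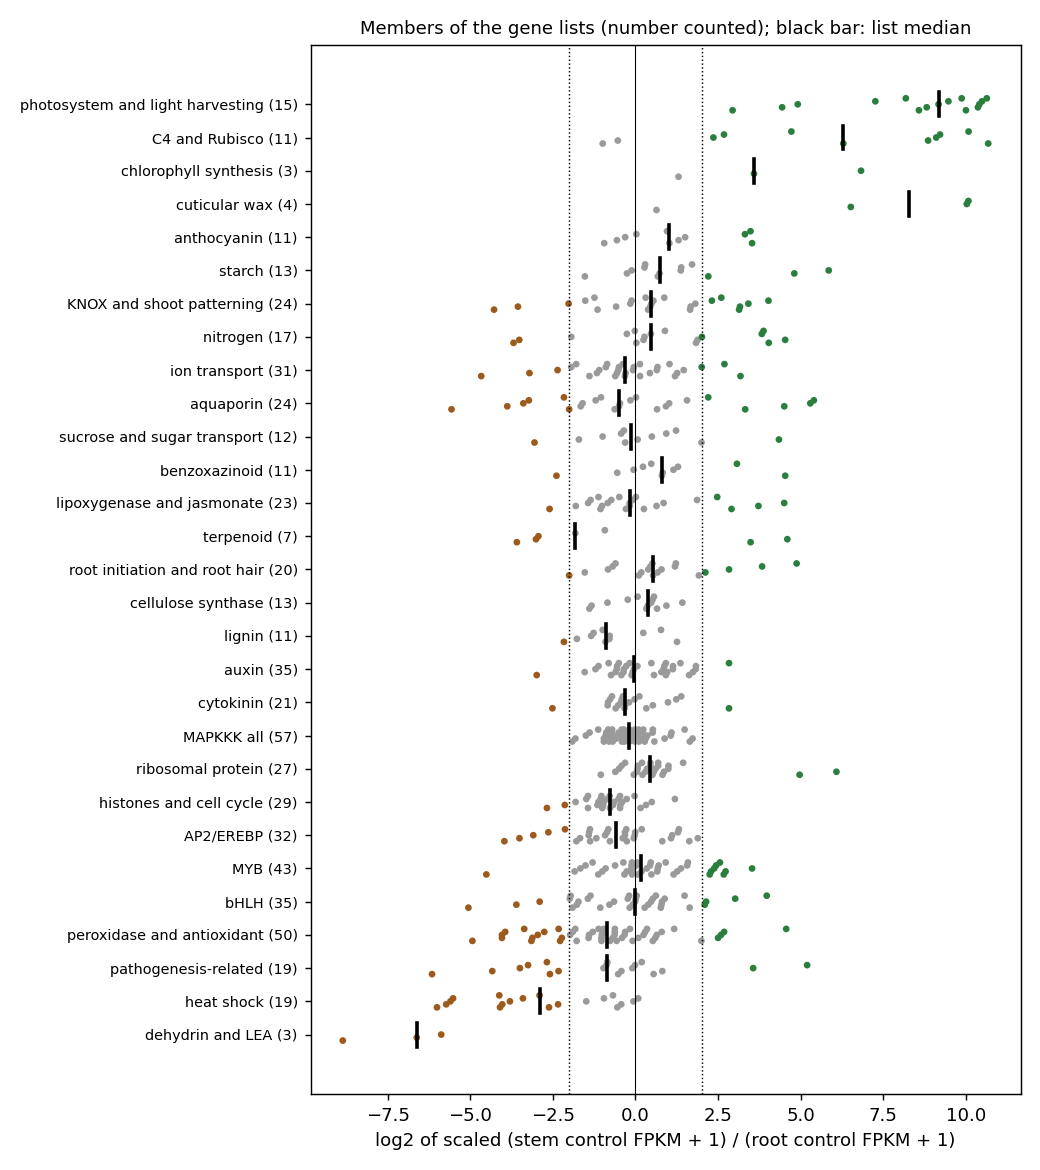
Log2 of stem control over root control, after scaling and with 1 FPKM added, for each counted member of 29 gene lists, with the number of counted members in brackets. Green points are stem-high, brown points root-high and grey points within 4-fold (dotted lines), and the black bar is the list median. The photosystem list lies wholly to the right at a median of 9.17, the heat shock list has its median at -2.90, and all 57 MAPKKKs and all 13 cellulose synthases lie between the dotted lines.

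Among the aquaporins the PIP and NIP subfamilies differed in direction, while TIP genes were called both ways and no SIP gene was called. These channels carry water and small solutes across membranes, the plasma membrane type (PIP) and tonoplast type (TIP) mainly water, and the NIP2 group also silicic acid. Of 24 counted aquaporins 6 were root-high, 5 stem-high and 13 within 4-fold, against 5.28% root-high and 9.33% stem-high over all counted genes. In the drought pair 3 stem-high and 9 root-high genes were found. No PIP was stem-high and 4 of 9 were root-high, with a median log2 value of -1.66. The largest difference was that of pip2-5 (GRMZM2G178693), with 0.218 FPKM in stem control and 60.4 FPKM in root control (log2 -5.56), and with 9.88e-07 FPKM in stem drought and 42.1 FPKM in root drought. PIP2-4 (GRMZM2G154628) had 27.2 FPKM in stem control and 292 FPKM in root control (log2 -3.22), and PIP2-6 (GRMZM2G047368) had 10.6 FPKM in stem control and 133 FPKM in root control (log2 -3.39). The PIP2 gene pip2c (GRMZM2G081192) was close to the limit at 4.08 FPKM in stem control and 21.4 FPKM in root control (log2 -2.01). All 4 were root-high again in the drought pair, where the log2 values lay between -5.22 for pip2-5 and -2.29 for PIP2-4. The most abundant aquaporin of both tissues, PIP1-1 (GRMZM2G174807), did not differ at this limit, with 525 FPKM in stem control and 577 FPKM in root control. TIP2-3 (GRMZM2G125023) was listed at 0 in both stem libraries and had 14.4 FPKM in root control and 61.5 FPKM in root drought. TIP1-2 (GRMZM2G168439) had 2.16 FPKM in stem control and 14.4 FPKM in root control (log2 -2.16).

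In the other direction, TIP4-1 (GRMZM2G103945) had 62.2 FPKM in stem control and 0.613 FPKM in root control (log2 5.40), with 53.3 FPKM in stem drought and 7.49 FPKM in root drought and 342 FPKM in leaf control. TIP4-4 (GRMZM2G093090) had 3.42 FPKM in stem control and was listed at 0 in root control. Of 5 counted NIP genes, 3 were stem-high and none root-high. NIP2-3 (GRMZM2G081239) had 65.8 FPKM in stem control and 0.845 FPKM in root control (log2 5.29), and NIP2-2 (GRMZM2G137108) had 173 FPKM in stem control and 18.3 FPKM in root control (log2 3.32). Both were stem-high again in the drought pair, with log2 values of 4.56 and 3.25. The third, NIP1-1 (GRMZM2G041980), had 35.9 FPKM in stem control and 0.754 FPKM in root control (log2 4.50) but 48.8 FPKM in stem drought and 43.5 FPKM in root drought, which is within 4-fold. The NIP median was 3.32 in the control pair and 0.59 in the drought pair, where 3 of the 5 were above 0. NIP2-1 (GRMZM2G028325) was within 4-fold in the control pair at 53.3 FPKM in stem control and 19.4 FPKM in root control. The 3 SIP genes, a small intracellular group, stayed within 4-fold.

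**Figure D3:**
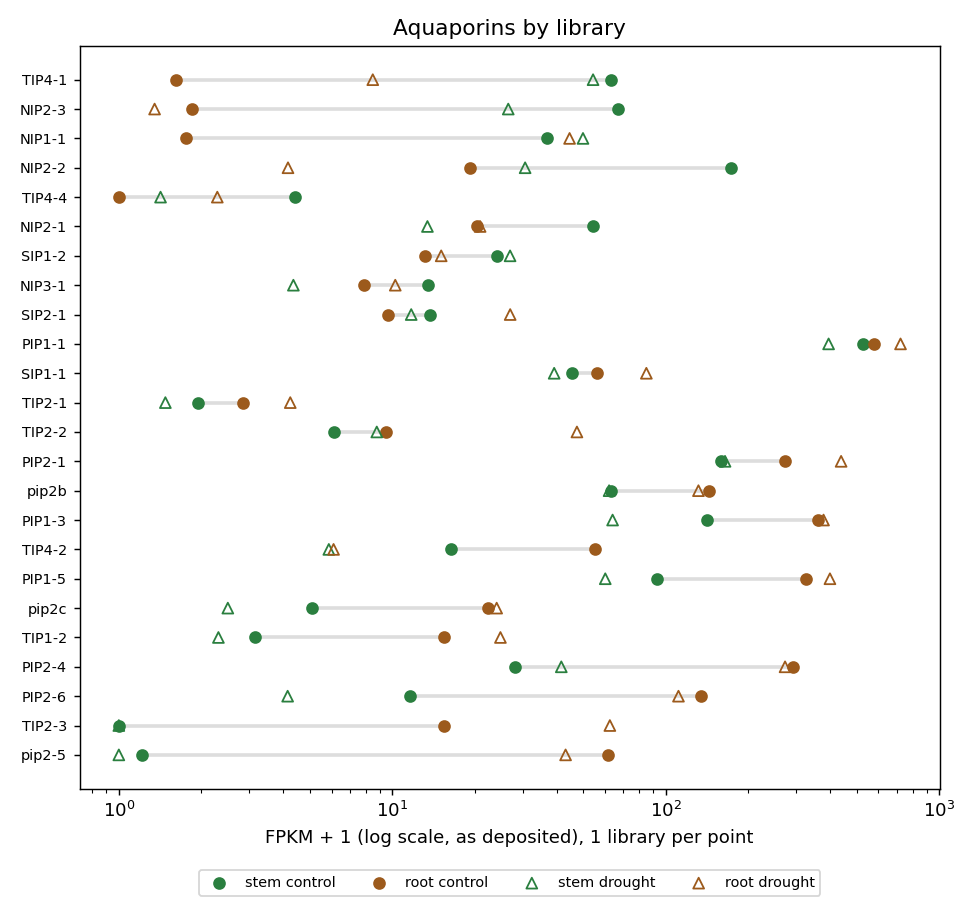
Deposited FPKM plus 1 of the 24 counted aquaporins on a log scale, 1 library per point, ordered by the log2 of stem control over root control with the most stem-high at the top. Green marks stem and brown root, filled circles control and open triangles drought, and the grey line joins stem control and root control. TIP4-1 and NIP2-3 lie far to the right in stem, pip2-5 and PIP2-6 far to the right in root in both treatments, and PIP1-1 is at 393 FPKM or more in all 4 libraries.

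Of 31 counted ion transport genes 3 were root-high and 3 stem-high, 9.68% each, near the 9.33% stem-high over all counted genes and above the 5.28% root-high. With the same FPKM sum 5 were root-high and 2 stem-high, and in the drought pair 3 stem-high and 5 root-high genes were found. The root-high ones were all phosphate transporter genes. The gene pht2 (GRMZM2G154090) had 4.49 FPKM in stem control and 54.8 FPKM in root control (log2 -3.21) and 0.107 FPKM in stem drought and 126 FPKM in root drought. The gene pht6 (GRMZM5G881088) was listed at 0 in both stem libraries and had 25.7 FPKM in root control and 1.71 FPKM in root drought, and pht7 (GRMZM2G112377) had 1.04 FPKM in stem control and 10.2 FPKM in root control. Of these, pht2 and pht7 were root-high in the drought pair and pht6 was not. The stem-high ones were kch3 (GRMZM2G081666), a potassium channel gene, at 8.19 FPKM in stem control and 0.0690 FPKM in root control (log2 3.18), HKT1 (GRMZM2G047616), a sodium transporter gene, at 20.4 FPKM in stem control and 2.62 FPKM in root control (log2 2.69), and NHX5 (GRMZM2G027851), a cation/proton antiporter gene, at 121 FPKM in stem control and 32.8 FPKM in root control (log2 2.01). Of these, kch3 and NHX5 were stem-high in the drought pair, and HKT1 was within 4-fold there at 2.14 FPKM in stem drought and 1.59 FPKM in root drought. The potassium transporter gene HAK1 (GRMZM2G093826) was just inside the 4-fold limit on the root side at 2.67 FPKM in stem control and 14.4 FPKM in root control. The proton pump genes mha2 and mha4 were abundant in both, at 119 and 91.2 FPKM in stem control and 119.6 and 125 FPKM in root control, and the pyrophosphatase gene vpp1 (GRMZM2G069095) was stem-high at 302 FPKM in stem control and 67.2 FPKM in root control (log2 2.30) and again in the drought pair at 2.04, but not in the control pair with the same FPKM sum.

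For nitrogen, 5 of 17 counted genes were stem-high and 2 root-high, against 9.33% and 5.28% over all counted genes. Under drought, 2 stem-high and 3 root-high genes were found, of which 2 and 1 were called in the same direction in the control pair, and the list median was 0.47 in the control pair and -0.40 in the drought pair. The nitrate transport partner gene NAR2.1 (GRMZM2G179294) was root-high at 0.774 FPKM in stem control and 20.8 FPKM in root control (log2 -3.51), and its paralog NAR2.2 (GRMZM2G163494) was stem-high at 19.7 FPKM in stem control and 0.510 FPKM in root control (log2 3.88). Between the drought libraries, NAR2.1 had 2.95 FPKM in stem drought and 31.02 FPKM in root drought, and NAR2.2 had 3.09 FPKM in stem drought and 0.170 FPKM in root drought, so each kept its direction. The nitrate reductase gene NNR1 (GRMZM2G568636), the first step of nitrate assimilation, had 41.99 FPKM in stem control and 1.86 FPKM in root control (log2 4.03), and in the drought pair it was within 4-fold at 15.7 FPKM in stem drought and 6.38 FPKM in root drought. One of the identifiers named gs2 (GRMZM2G098290), for plastid glutamine synthetase, had 313 FPKM in stem control and 14.1 FPKM in root control (log2 4.53), while the other (GRMZM5G885867) had a log2 value of -0.26. The first was stem-high in the drought pair too, at log2 3.26. The glutamine synthetase gene gln3 (GRMZM2G046601) was stem-high at 21.9 FPKM in stem control and 0.746 FPKM in root control and not in the drought pair, where it had 11.98 FPKM in stem drought and 31.3 FPKM in root drought. The asparagine synthetase gene asn3 (GRMZM2G053669) was root-high at 0.873 FPKM in stem control and 25.1 FPKM in root control (log2 -3.69), and the glutamate dehydrogenase gene gdh1 (GRMZM2G178415) was just past the limit in stem at 26.8 FPKM in stem control and 6.61 FPKM in root control. Neither was called in the drought pair, where asn3 had 0.200 FPKM in stem drought and 3.18 FPKM in root drought and gdh1 had 35.2 FPKM in stem drought and 65.3 FPKM in root drought. Of the 7 counted iron and phytosiderophore genes only ysl12 (GRMZM5G893444) passed 4-fold in the control pair, at 25.9 FPKM in stem control and 1.96 FPKM in root control (log2 3.31). In the drought pair ysl12 was stem-high again, and ys1 and Nramp1 were root-high, at log2 values of -3.19 and -3.91.

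Of 12 counted genes of sucrose metabolism and sugar transport 1 was stem-high and 1 root-high, 8.33% each, which is close to the shares of 9.33% and 5.28% over all counted genes. Sucrose phosphate synthase makes sucrose, and its gene sps1 (GRMZM5G875238) had 35.1 FPKM in stem control and 0.925 FPKM in root control (log2 4.34), and it was stem-high in the drought pair too, at 3.68 FPKM in stem drought and 0.327 FPKM in root drought. Sucrose synthase breaks sucrose down in importing tissue, and the gene sus2 (GRMZM2G318780) had 24.9 FPKM in stem control and 237 FPKM in root control (log2 -3.05), with 8.73 FPKM in stem drought and 25.9 FPKM in root drought, which is within 4-fold. The sucrose synthase genes sh1 and sus1 stayed within 4-fold, at log2 values of -1.71 and 0.07, and were both root-high in the drought pair, at -2.82 and -2.34. Of 13 counted starch genes 3 (23.1%) were stem-high and none root-high, and in the drought pair 8 were stem-high and none root-high. The gene agpsl1 (GRMZM2G163437), a small subunit of ADP-glucose pyrophosphorylase, had 140.0 FPKM in stem control and 1.67 FPKM in root control (log2 5.85), and the amylase gene Amy2 (GRMZM2G058310) had 194 FPKM in stem control and 6.70 FPKM in root control (log2 4.81). The third was the starch synthase gene ss1, with a log2 value of 2.20, and all 3 were stem-high again in the drought pair.

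Of 19 counted pathogenesis-related genes 7 were root-high and 2 stem-high, against 5.28% root-high and 9.33% stem-high over all counted genes. In the drought pair 6 of the 7 were root-high again, against 45.5% of all root-high genes. The median log2 value was -0.85, while the summed level was higher in stem, at 2993 FPKM in stem control and 1756 FPKM in root control, of which cystatinII made up 2341 and 219.6 FPKM. The gene prp4 (GRMZM2G465226), of the PR-1 type, had 3.09 FPKM in stem control and 319 FPKM in root control (log2 -6.15) and 0.125 FPKM in stem drought and 580.1 FPKM in root drought. The chitinase genes chiA, chiB and chn1, whose products cut fungal cell walls, had 8.52, 0.185 and 44.8 FPKM in stem control and 99.2, 24.3 and 325 FPKM in root control. Under drought, the root levels of these chitinases were 444, 144 and 1780.5 FPKM, each above the stem drought level of the same gene. The proteinase gene mir2 had a log2 value of -2.33, the cystatin gene cc10 one of -3.49, and pr6 was listed at 0 in stem control and had 5.28 FPKM in root control. Between the drought libraries, mir2 and pr6 were root-high, pr6 at 0 FPKM in stem drought and 2102 FPKM in root drought, and cc10 was within 4-fold at -1.54. The stem-high ones were prp2 (GRMZM2G102356), at 35.8 FPKM in stem control and 0.0613 FPKM in root control, and the gene named cystatinII (GRMZM2G012160), at 2341 FPKM in stem control and 219.6 FPKM in root control (log2 3.56), and both were stem-high in the drought pair.

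Detoxification and peroxidase genes gave 12 root-high and 4 stem-high genes of 50 counted, with a median log2 value of -0.87. Over all counted genes 5.28% were root-high and 9.33% stem-high, so the stem-high share was near that of all genes. Of the root-high ones 9 were glutathione transferase genes. The gene gst42 (GRMZM2G025190) had 0.150 FPKM in stem control and 36.3 FPKM in root control (log2 -4.93), and gst2 (GRMZM2G132093) had 2.88 FPKM in stem control and 68.8 FPKM in root control (log2 -4.04). The peroxidase gene PER66 had 1.26 FPKM in stem control and 20.3 FPKM in root control, and PER2 and Px11 were listed at 0 in stem control and had 15.1 and 6.08 FPKM in root control. The superoxide dismutase gene sodB and the catalase gene cat2 (GRMZM2G090568) were stem-high, with log2 values of 2.50 and 4.56. Of the 12 root-high genes 10 were root-high again in the drought pair, all but GST38 and gst5, against 45.5% of all root-high genes. The stem-high gene PER42 had the opposite order there.

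Terpenoid, benzoxazinoid and oxylipin genes held members of both directions. Of 7 counted terpenoid genes 2 were stem-high and 3 root-high, against 9.33% and 5.28% over all counted genes. In the drought pair 1 was stem-high and 4 root-high. The sesquiterpene pathway genes fps1 (GRMZM2G168681), a farnesyl diphosphate synthase, and CYP71Z16 were root-high, with log2 values of -3.59 and -2.93, and the terpene synthase gene tps6 was listed at 0 in stem control and had 7.44 FPKM in root control. The kaurene synthase gene KS (GRMZM2G049538) was stem-high at 22.5 FPKM in stem control and 0.0236 FPKM in root control (log2 4.60), and tps26 was stem-high at 12.9 FPKM in stem control and 0.326 FPKM in root control. In the drought pair fps1, CYP71Z16 and tps6 were root-high and KS stem-high again, at 19.95 FPKM in stem drought and 0.252 FPKM in root drought for KS, and tps26 was within 4-fold at 0.525 FPKM in stem drought and 0.244 FPKM in root drought. The benzoxazinoid genes bx1, BX3, BX4 and BX5, which make the cyclic hydroxamic acids of young maize, stayed within 4-fold, with log2 values between 0.48 for BX3 and 1.15 for bx1. The beta-glucosidase genes that release these compounds went in opposite directions. The gene glu1 (GRMZM2G016890) had 9.98 FPKM in stem control and 62.6 FPKM in root control (log2 -2.39), and glu2 (GRMZM2G008247) had 122 FPKM in stem control and 4.86 FPKM in root control (log2 4.53). Both kept their directions in the drought pair, with log2 values of -6.08 for glu1 and 4.31 for glu2. Lipoxygenases likewise differed. The gene lox10 (GRMZM2G015419), which feeds the green leaf volatiles, had 1618 FPKM in stem control and 136 FPKM in root control (log2 3.72), while lox3 (GRMZM2G109130) had 31.3 FPKM in stem control and 216 FPKM in root control (log2 -2.60). The allene oxide synthase gene aos2, the oxophytodienoate reductase gene opr6 and lox6 were also stem-high, with log2 values of 2.91, 4.50 and 2.47. Altogether 4 of 23 counted oxylipin genes were stem-high and 1 was root-high, against 9.33% and 5.28% over all counted genes. Under drought, lox10, aos2 and opr6 were stem-high at log2 values of 2.28, 2.16 and 2.42, lox3 was root-high at -4.19, and lox6 was within 4-fold at 1.54.

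Several of the largest root-high differences among named genes were those of dehydrin, LEA and heat shock genes, and most of these were not seen in the drought pair. Dehydrins and other late embryogenesis abundant (LEA) proteins protect cells that dry out, and the small heat shock proteins and chaperones keep other proteins folded under stress. The dehydrin gene dhn1 (GRMZM2G079440), also known as rab17, had 0.370 FPKM in stem control and 678 FPKM in root control, the largest log2 value of any named root-high gene at -8.85. Under drought it had 0.188 FPKM in stem drought and 3.03 FPKM in root drought. The dehydrin gene dhn2 (GRMZM2G373522) had 6.49 FPKM in stem control and 811 FPKM in root control (log2 -6.62) and 9.14 FPKM in stem drought and 158 FPKM in root drought, and mlg3 (GRMZM2G096475) had 0.0548 FPKM in stem control and 64.5 FPKM in root control (log2 -5.88) and 0.0414 FPKM in stem drought and 0.0725 FPKM in root drought. All 3 were therefore root-high in the control pair and only dhn2 in the drought pair, and all 3 were lower in root drought than in root control.

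Of 19 counted heat shock genes 12 were root-high and none stem-high, against 5.28% root-high over all counted genes. The list median was -2.90 in the control pair and -0.35 in the drought pair, where 2 were root-high. The chaperone gene hsp82 (GRMZM5G833699) had 0.157 FPKM in stem control and 77.9 FPKM in root control (log2 -6.00) and 0.310 FPKM in stem drought and 0.639 FPKM in root drought. The small heat shock protein genes hsp18c (GRMZM2G034157) and hsp18f (GRMZM2G083810) had 1.10 and 3.35 FPKM in stem control and 119.6 and 230.3 FPKM in root control. In root drought hsp18c had 1.78 FPKM and hsp18f had 9.49 FPKM, so both were more than 10-fold lower than in root control. The gene hsp17.2 (GRMZM2G158232), which the name pattern of the list did not take in, had 1.33 FPKM in stem control and 114 FPKM in root control (log2 -5.51), and 24.6 FPKM in stem drought and 7.89 FPKM in root drought. The disaggregase gene hsp101 (GRMZM2G360681) had 8.08 FPKM in stem control and 163 FPKM in root control (log2 -4.03) and 6.35 FPKM in stem drought and 10.3 FPKM in root drought. The Hsp70 gene (GRMZM2G310431) and hsp22 (GRMZM2G007729) had log2 values of -3.40 and -4.12. Heat shock factors, which switch these genes on, were split. Hsf26 (GRMZM2G003489) had 0.0576 FPKM in stem control and 50.2 FPKM in root control (log2 -5.52), Hsf03 (GRMZM2G164909) had 1.25 FPKM in stem control and 32.9 FPKM in root control (log2 -3.80), and Hsf05 under the identifier GRMZM2G133023 had 2.37 FPKM in stem control and 62.2 FPKM in root control (log2 -4.10). The other 7 heat shock genes that were not called were all named as heat shock factors, with log2 values between -1.49 for Hsf17 and 0.09 for the identifier GRMZM2G132971. The 2 heat shock genes that were root-high in both pairs were hsp22 and Hsf05 (GRMZM2G133023), with 105 and 22.9 FPKM in root drought. Summed over the list, heat shock genes had 242 FPKM in stem control and 1693 FPKM in root control, and 240.5 FPKM in stem drought and 448 FPKM in root drought. The summed stem levels were close, and 10 of the 19 were at least 4-fold lower in root drought than in root control. The share of all counted genes with such a fall was not computed. In leaf the sum was 300 FPKM in leaf control and 183 FPKM in leaf drought.

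**Figure D4:**
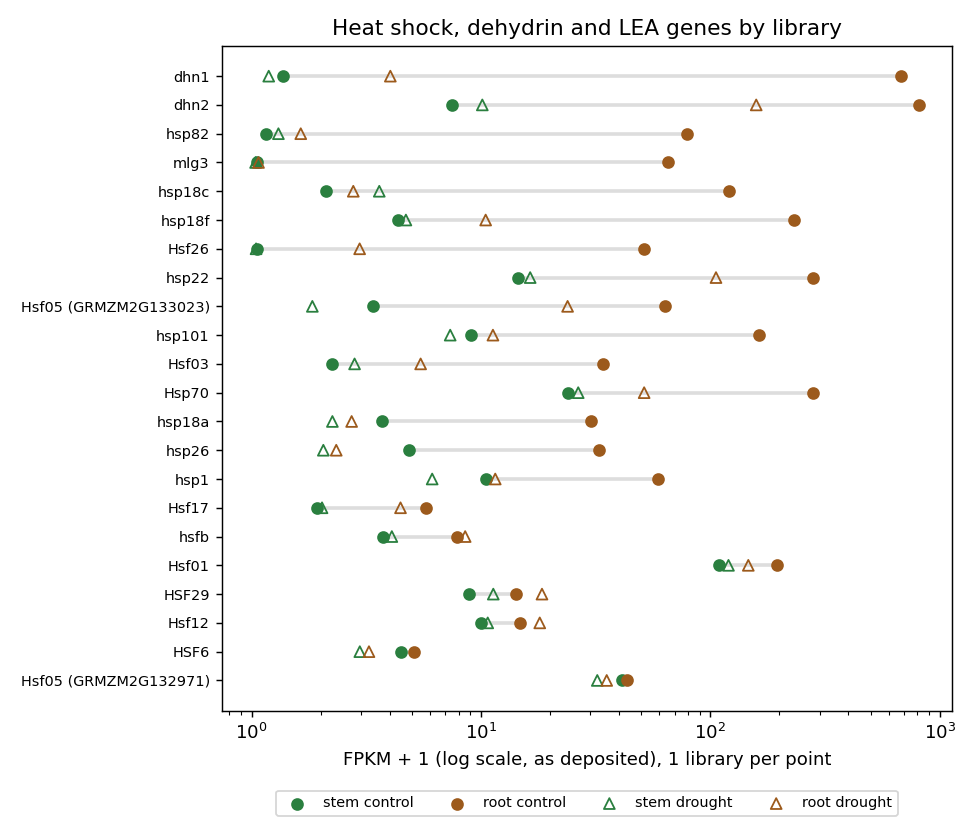
Deposited FPKM plus 1 of the 19 counted heat shock and 3 dehydrin and LEA genes on a log scale, 1 library per point, ordered by the log2 of stem control over root control with the most root-high at the top. Green marks stem and brown root, filled circles control and open triangles drought. For many of the upper genes the root control point stands alone to the right, while root drought lies near the stem points. An example is dhn1, at 678 FPKM in root control. Among the exceptions is dhn2, at 158 FPKM in root drought.

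A few further named genes had this profile. ZCN6 (GRMZM2G132880), of the FT and TFL1 family of flowering regulators, had 0.223 FPKM in stem control and 82.4 FPKM in root control (log2 -6.00) and 0.0589 FPKM in stem drought and 0.612 FPKM in root drought. The gene named ERTC (GRMZM2G051135) had 0.251 FPKM in stem control and 79.5 FPKM in root control (log2 -5.91) and 0.710 FPKM in stem drought and 1.83 FPKM in root drought. AR3 (GRMZM2G169943) was listed at 0 in both stem libraries and had 63.1 FPKM in root control and 0.0691 FPKM in root drought. Other large root-high differences were present in both pairs. BURP3 (GRMZM2G106980), of the BURP domain family, had 16.02 FPKM in stem control and 1237 FPKM in root control (log2 -6.03) and 0.329 FPKM in stem drought and 438 FPKM in root drought. The factor bHLH116 (GRMZM2G042895) had 4.10 FPKM in stem control and 186 FPKM in root control (log2 -5.05) and 13.3 FPKM in stem drought and 479 FPKM in root drought.

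Over all genes the same difference between directions was seen. Of the 2726 stem-high genes 1818 (66.7%) were stem-high in the drought pair, and 48 (1.76%) were root-high there. The exact binomial 95% interval of the first share was 64.9% to 68.5%. Such an interval treats genes as independent and covers no error between libraries, and the difference between directions was not tested. Of the 1541 root-high genes 701 (45.5%, interval 43.0% to 48.0%) were root-high in the drought pair, and 23 (1.49%) were stem-high. The sign was the same in both pairs for 89.0% of the stem-high and 80.1% of the root-high genes. Of the 840 root-high genes that were not called root-high in the drought pair, 382 were at least 4-fold lower in root drought than in root control on deposited levels with 1 FPKM added, and 66 were at least 4-fold higher in stem drought than in stem control. Of the 908 stem-high genes that were not stem-high in the drought pair, 299 were at least 4-fold lower in stem drought than in stem control, and 164 were at least 4-fold higher in root drought than in root control.

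**Figure D5:**
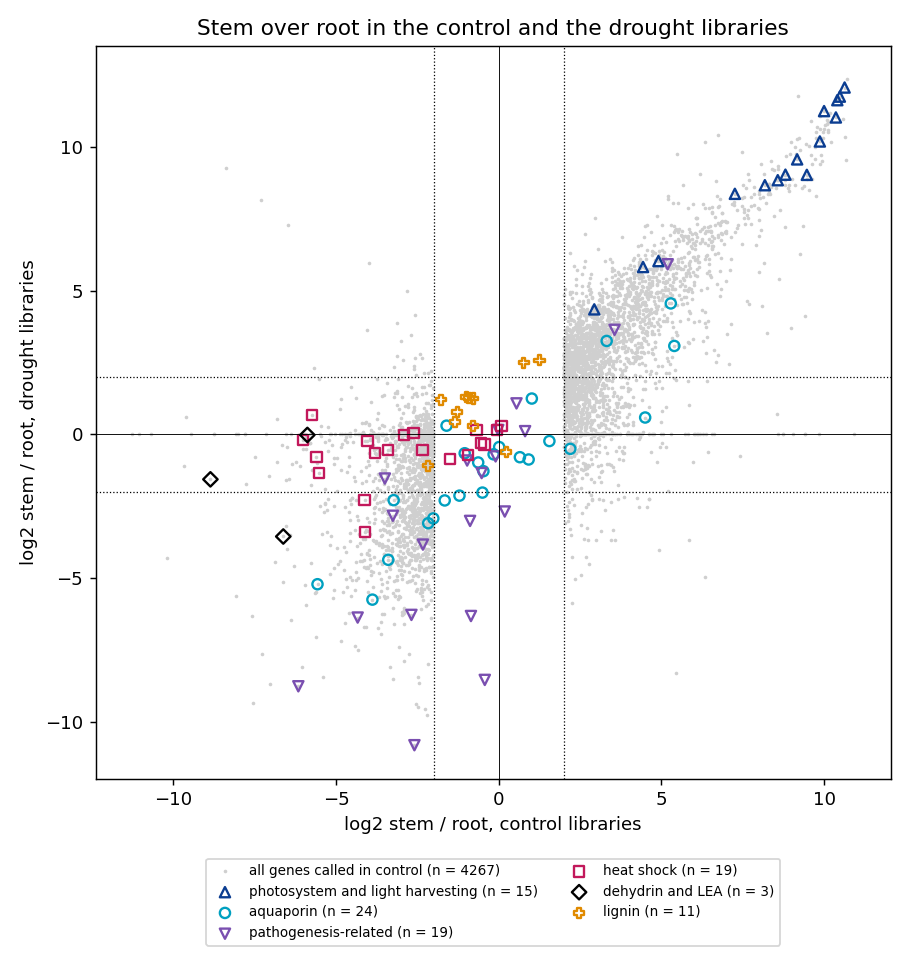
Log2 of stem over root in the control libraries (x axis) and in the drought libraries (y axis), after scaling and with 1 FPKM added. Grey points are the 4267 genes called in the control pair, open symbols are the counted members of 6 lists, and dotted lines mark 4-fold. The 15 photosystem genes lie high in both pairs, most heat shock genes lie near 0 on the y axis, and 9 of the 11 lignin genes lie above 0 on the y axis while 8 lie below 0 on the x axis.

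Genes of growth and cell wall construction gave few calls in the control pair, with 4 expansin genes among those called. Over all counted genes 9.33% were stem-high and 5.28% root-high. None of the 13 counted cellulose synthase genes was called, with log2 values from -1.39 for CesA-5 to 1.42 for CesA-7, and their median of 0.37 turned to -0.10 when the columns were scaled to the same FPKM sum. Between the drought libraries, 3 of them were stem-high, among them bk2 at 255 FPKM in stem drought and 51.9 FPKM in root drought, and the median was 1.55. Of 11 counted lignin genes only one of the identifiers named Bm6 (GRMZM2G062420) was called, root-high at 18.1 FPKM in stem control and 94.1 FPKM in root control (log2 -2.16), and the list median was -0.91 with 8 of 11 below 0. The lignin genes summed to 729 FPKM in stem control and 1837 FPKM in root control, and to 2524 FPKM in stem drought and 1583 FPKM in root drought, and the median in the drought pair was 1.21. The phenylalanine ammonia-lyase gene PAL1 (GRMZM2G074604), the entry step of the pathway, had 222 FPKM in stem control and 848 FPKM in root control (log2 -1.77). Expansins loosen growing cell walls, and expa1 (GRMZM2G339122) had 77.9 FPKM in stem control and 1.93 FPKM in root control (log2 4.88), while expB6 (GRMZM2G176595) had 35.1 FPKM in stem control and 1.76 FPKM in root control (log2 3.83). The expansin genes expB4 and EXPA5 were stem-high too, at log2 values of 2.83 and 2.12. All 4 stem-high genes among the 20 counted for root initiation, root hairs and expansins were thus expansins. The 1 root-high gene of that list was rth3. How many of the 20 were expansins was not counted, so no share of expansins is given. In the drought pair expa1, expB6 and EXPA5 were stem-high at 4.35, 4.10 and 3.11, and expB4 was within 4-fold at 1.46. Of 29 counted histone, tubulin and cell cycle genes 2 were root-high, H4C13 and his2b2, and none was stem-high. The list median was -0.78, with 25 of 29 below 0, against -0.09 over all counted genes. Under drought, 11 were root-high and none stem-high, with a median of -1.13. Of 27 counted ribosomal protein genes 2 were called, rpl29 (GRMZM2G028216) at 169 FPKM in stem control and 1.74 FPKM in root control (log2 6.08) and rpl19 (GRMZM2G171444) at 302 FPKM in stem control and 9.74 FPKM in root control (log2 4.97). In leaf control they had 347 and 513 FPKM. The median of the list was 0.45 and turned to -0.03 with the same FPKM sum. In the control pair 21 of the 27 were above 0, and in the drought pair 24 were below 0, with a median of -0.61, while rpl29 and rpl19 were stem-high there too.

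Hormone lists gave few calls, beside shares of 9.33% stem-high and 5.28% root-high over all counted genes. Of 35 counted auxin genes AUX10 (GRMZM2G057067) was root-high at 1.33 FPKM in stem control and 19.1 FPKM in root control (log2 -2.99), and aux2 was stem-high, with 5.80 FPKM in stem control and 0 in root control. Both kept their calls in the drought pair, where 3 stem-high and 3 root-high auxin genes were found, and the list median was -0.05 in the control pair and 0.23 in the drought pair. Of 21 counted cytokinin genes the response regulator gene RR9 was root-high at 2.40 FPKM in stem control and 20.2 FPKM in root control (log2 -2.51), and the cytokinin oxidase gene CKX12 was stem-high at 6.94 FPKM in stem control and 0.178 FPKM in root control (log2 2.83). The cytokinin median was -0.33 with 14 of 21 below 0. Between the drought libraries, it was -0.50, with RR9, CKX10 and CKX6 root-high and none stem-high, and CKX12 was within 4-fold there at 0.660 FPKM in stem drought and 0.423 FPKM in root drought. None of the 8 counted gibberellin genes was called in the control pair, and 1 stem-high and 2 root-high were found in the drought pair.

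The MAPKKKs, the kinases at the head of MAP kinase cascades and the subject of the study, did not separate stem from root at the 4-fold limit. Of 71 MAPKKKs 68 were found in the tables and 57 were counted, 19 MEKK, 32 Raf and 6 ZIK. None was called in either direction, against 9.33% stem-high and 5.28% root-high over all counted genes. The median log2 value was -0.20, with -0.50 for MEKK, -0.14 for Raf and 0.10 for ZIK. With the same FPKM sum the MEKK, Raf and ZIK medians were -0.89, -0.55 and -0.20, against -0.50 over all counted genes. The lowest ratio was that of ZmMAPKKK22 (GRMZM2G041774), with 0.134 FPKM in stem control and 3.48 FPKM in root control (log2 -1.91), which was root-high in the drought pair at 1.45 FPKM in stem drought and 12.5 FPKM in root drought and in the control pair with the same FPKM sum. In the drought pair ZmMAPKKK18, ZmMAPKKK21 and ZmMAPKKK56 were root-high as well, at log2 values of -2.25, -2.83 and -2.28. No MAPKKK was stem-high there, and 46 of the 57 were below 0, against 36 in the control pair. Over all 29202 counted genes, 14956 were below 0 in the drought pair and 15680 in the control pair. The highest ratio in the control pair was that of ZmMAPKKK26 (GRMZM2G021416), with 15.7 FPKM in stem control and 4.54 FPKM in root control (log2 1.73). It had 4.11 FPKM in stem drought and 10.3 FPKM in root drought. The most abundant, ZmMAPKKK50 (GRMZM2G111269), had 49.6 FPKM in stem control and 45.3 FPKM in root control.

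Transcription factor families held single genes with large differences. The shares to set beside their counts are 9.33% stem-high and 5.28% root-high over all counted genes. Of 32 counted AP2/EREBP genes 5 were root-high and none stem-high. The same 5 were root-high in the drought pair, against 45.5% of all root-high genes. EREB36 (GRMZM2G069082) had 0.790 FPKM in stem control and 29.2 FPKM in root control (log2 -3.96), EREB27 (GRMZM2G084264) was listed at 0 in stem control and had 10.9 FPKM in root control, and the others were DBP4, EREB202 and EREB68. The bHLH family gave 3 root-high and 4 stem-high genes of 35, with bHLH116 and bHLH35 (GRMZM2G173372) root-high, the second at 0.452 FPKM in stem control and 17.9 FPKM in root control, and with bHLH165 at 13.9 FPKM in stem control and 0 in root control. The bHLH shares of 8.57% root-high and 11.4% stem-high were near those over all genes and moved with the scaling, to 7 root-high and 2 stem-high with the same FPKM sum and 6 and 4 with no scaling. Under drought, all 3 root-high genes and 2 of the 4 stem-high genes kept their calls. Of 43 counted MYB genes 8 were stem-high and 1 was root-high, MYB165 (GRMZM2G089686), at 0.214 FPKM in stem control and 28.4 FPKM in root control (log2 -4.51). Between the drought libraries, MYB165 was root-high again and 4 of the 8 were stem-high, Myb23 among them. The stem-high MYB with the largest difference was pl1, also named Myb23 (GRMZM2G701063), a regulator of anthocyanin synthesis, at 15.1 FPKM in stem control and 0.495 FPKM in root control (log2 3.53). The anthocyanin pathway gene f3h, a flavanone hydroxylase, was stem-high at 14.6 FPKM in stem control and 0.683 FPKM in root control (log2 3.31), and the chalcone synthase gene whp1 had 9.63 FPKM in stem control and was listed at 0 in root control. Both were stem-high in the drought pair, f3h at 15.5 FPKM in stem drought and 0.636 FPKM in root drought and whp1 at 77.2 FPKM in stem drought and 0.469 FPKM in root drought. Of 19 counted NAC genes 2 were root-high, among them NAC40 (GRMZM5G898290) at 9.69 FPKM in stem control and 82.7 FPKM in root control (log2 -2.82), and both were root-high in the drought pair, where 5 NAC genes were. Of 33 counted bZIP genes 3 were stem-high and 1 root-high. The largest difference was that of bZIP61, with 15.8 FPKM in stem control and 0.160 FPKM in root control, and the root-high gene was bZip37, with 4.77 FPKM in stem control and 36.9 FPKM in root control. In the drought pair bZIP61 was stem-high again at 12.7 FPKM in stem drought and 0.0709 FPKM in root drought, and bZip37 was within 4-fold at 8.72 FPKM in stem drought and 18.05 FPKM in root drought. The stem-high gene bZIP111 was within 4-fold in the drought pair with a higher level in root, at 18.3 FPKM in stem drought and 63.5 FPKM in root drought.

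The most abundant genes and the largest differences outside the named genes were mostly without a name in the reference used. In stem control the highest level was that of AC207722.2_FG009, with 8924 FPKM in stem control and 4.96 FPKM in root control (log2 10.69), followed by grp1 (GRMZM2G080603) with 6239.7 FPKM in stem control and 2854 FPKM in root control. The levels of GRMZM2G107839 and of hsbp1 (GRMZM2G085924), also among the 5 most abundant genes of stem control, were 4185 and 3894 FPKM there and 34.8 and 1639 FPKM in root control. In root control GRMZM2G506270 was highest, with 650.1 FPKM in stem control and 3236 FPKM in root control (log2 -2.16), followed by GRMZM2G164229 with 1074 FPKM in stem control and 3124 FPKM in root control and GRMZM2G036048 with 289 FPKM in stem control and 3079 FPKM in root control (log2 -3.25). The gene with the highest level among those listed at 0 elsewhere was GRMZM2G578282, at 2599 FPKM in root control and 0 in the other 5 libraries. In the same way GRMZM2G583696 and GRMZM2G486076 had 2238 and 1714 FPKM in root control, and GRMZM2G589517 had 1848 FPKM in stem control, each with 0 in the other 5 libraries. Of the 2034 stem-high genes with at least 10 FPKM in stem control, 214 were listed at 0 in root control and 34 of them at 0 in all other 5 libraries. Of the 984 root-high genes with at least 10 FPKM in root control, 127 were listed at 0 in stem control and 25 of them at 0 in all other 5 libraries.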

How the data were processed

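RNA from leaf, stem and root of ZD619 was sequenced in control and drought plants, 1 library per tissue and treatment. According to the methods of the study, the authors mapped the reads to the maize B73 genome with TopHat and processed them with Cufflinks and Cuffdiff. Versions and the genome release are not given in the sources used here. The authors deposited 1 table per tissue with a control and a drought FPKM column for 109715 gene identifiers. Joint normalization within a table only was assumed. A further column holds their own log2 ratio of drought to control and was not used. The tables give no counts per gene, so counting error is unknown. The study lists total and aligned reads per library, which were not used here. Its lowest mapping rate was that of root drought.

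Stem control and root control were joined on the identifier, and each pair was scaled to the same median over genes above 1 FPKM in both (21976 genes in the control pair, factors 1.06 for stem and 0.948 for root). The log2 ratio was taken with 1 FPKM added. Genes above 1 FPKM in at least 1 of the 2 control libraries were counted, and a difference of at least 4-fold was called. Stem drought and root drought were treated in the same way. The steps were tested on simulated data.

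Names came from RefSeq gene records of another assembly (Zm-B73-REFERENCE-NAM-5.0), which matched 18778 identifiers, 2716 with a name other than a locus number. Synonyms were used, since most symbols are locus numbers, and 519 identifiers matched more than 1 gene. No coordinates or sequences are given. The genes named were, per direction, the 15 with a name and the 3 of any kind with the largest log2 ratio and at least 10 FPKM in the higher library, up to 6 members per list with the largest ratio and up to 3 with the highest level, the 5 most abundant genes of each library, and markers. Genes of a count of 5 or fewer are also named, and a few others were chosen after their values were seen. The lists were set by symbol, and the MAPKKKs were those of the study. The comparison and the lists were chosen with earlier results of these data known. Python 3.11.15 (numpy 2.4.6, pandas 2.3.3) was used, with intervals from scipy 1.17.1 and plots from matplotlib 3.10.9.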

Additional observations from a re-analysis of the deposited data

Results flagged for a closer look

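A pair of named genes was at least 4-fold higher in stem in the control libraries and at least 4-fold higher in root in the drought libraries. With 1 library per tissue and treatment, the difference between the pairs was not tested. The first was PER42 (GRMZM2G126261), a peroxidase gene, with 79.7 FPKM in stem control and 12.9 FPKM in root control, a log2 value of 2.68, and with 8.71 FPKM in stem drought and 248 FPKM in root drought, a log2 value of -4.27. The second was Igl (GRMZM2G046163), an indole-3-glycerol phosphate lyase gene that makes free indole, with 18.9 FPKM in stem control and 1.58 FPKM in root control, a log2 value of 3.07, and with 4.41 FPKM in stem drought and 32.97 FPKM in root drought, a log2 value of -2.26. In both genes the stem level was lower and the root level higher in drought than in control. Over all counted genes, 48 of the 2726 stem-high genes had such a reversal, and 23 of the 1541 root-high genes had the opposite one.

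The lignin list was picked out because its median log2 value was -0.91 in the control pair, with 8 of 11 genes below 0, and 1.21 in the drought pair, with 9 of 11 above 0. This difference was not tested either. PAL1 (GRMZM2G074604) had 222 FPKM in stem control and 848 FPKM in root control, and 1019 FPKM in stem drought and 595 FPKM in root drought. The gene 4CL (GRMZM2G075333), a coumarate CoA ligase, had 71.3 FPKM in stem control and 159 FPKM in root control, and 301 FPKM in stem drought and 163 FPKM in root drought. For these genes the root levels were alike in both treatments within 2-fold, and the stem levels were more than 4-fold higher in stem drought than in stem control.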

How the results depend on the processing

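Each result was recomputed under 9 alternatives. With no scaling, the same FPKM sum, a median ratio of 1 or no filter, the numbers of stem-high and root-high genes stayed within 1.5 times 2726 and 1541. With 0.1 FPKM added, root-high genes numbered 3345. With 5 FPKM added, stem-high genes numbered 1407 and root-high genes 466, and with at least 10 FPKM in either library root-high genes numbered 984. At 2-fold there were 5706 stem-high and 5222 root-high genes, and at 8-fold 1442 and 527. The share of stem-high genes that were stem-high in the drought pair was 63.5% with no scaling, 71.3% with the same FPKM sum, 72.1% with 5 FPKM added, 73.7% with the 10 FPKM filter, 63.97% at 2-fold and 71.3% at 8-fold. The share of root-high genes that were root-high there was 49.3% with no scaling, 41.9% with the same FPKM sum, 37.3% with 5 FPKM added, 48.1% with the 10 FPKM filter and 39.7% at 8-fold, and it was the lower of the shares under all 9 alternatives. Among list medians, that of the photosystem genes was 10.12 with 0.1 FPKM and 8.05 with 5 FPKM added, that of the C4 genes 5.51 with 5 FPKM added, 5.50 with no filter and 7.57 with the 10 FPKM filter, and that of the heat shock genes -2.06 with 5 FPKM added and -3.60 with the 10 FPKM filter. The terpenoid median was -4.23 with 0.1 FPKM added, -0.59 with 5 FPKM added and -0.93 with no filter, the starch median 1.32 with 0.1 FPKM added and 1.55 with the 10 FPKM filter, and the AP2/EREBP median -1.12 with that filter. The causes were not tested. All 41 genes named by size or level kept their side of the 4-fold limit or their place within it under the 7 alternatives that keep that limit and add a scaling, an added value or a filter. The planned motif counts in promoters were not run. No paired analysis was possible because no group holds more than 1 library and the labels give no replicate numbers, and no library could be left out. Precision is least for genes of low FPKM, whose counting error is unknown here.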

Other observations

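Other transcription factor and flowering gene lists gave few calls, and 9.33% of all counted genes were stem-high and 5.28% root-high. Of 15 counted clock and flowering genes, 2 were root-high and 1 was stem-high, and with the same FPKM sum 5 were root-high, with no scaling 3. The root-high ones were ZCN6, described above, and ZCN2, of the same FT and TFL1 family, and ZCN2 was listed at 0 in both stem libraries and had 7.48 FPKM in root control and 3.32 FPKM in root drought. Neither was root-high in the drought pair. ZCN26, also of this family, had 25.3 FPKM in stem control and 4.40 FPKM in stem drought and was listed at 0 in both root libraries. The clock-associated gene gigz1b, of the GIGANTEA type, had 41.5 FPKM in stem control and 72.4 FPKM in root control, which is within 4-fold. Of 16 counted MADS genes 3 were stem-high and 2 root-high, and the largest difference was that of m26 (GRMZM2G046885), with 33.4 FPKM in stem control and 0.726 FPKM in root control (log2 4.42) and 34.5 FPKM in stem drought and 1.18 FPKM in root drought. MADS76 (GRMZM2G070034) and zmm19 (GRMZM2G370777) were stem-high with log2 values of 2.15 and 2.07, and both fell inside the 4-fold limit with no scaling, with the same FPKM sum and in the drought pair. The root-high ones were the identifiers named zmm2, at log2 -2.91 for GRMZM2G492156 and, with 0 in stem control, at 5.24 FPKM in root control for GRMZM2G316366, and only the second was root-high in the drought pair.

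Of 19 counted WRKY genes, WRKY104 (GRMZM2G169149) and WRKY53 (GRMZM2G125653) were stem-high at log2 values of 4.01 and 3.40, and WRKY30 (GRMZM2G143204) was root-high at -2.59. WRKY104 had 16.2 FPKM in stem control and 0.130 FPKM in root control, and 0.765 FPKM in stem drought and 0.186 FPKM in root drought, so it was not called in the drought pair, where WRKY53 and WRKY30 kept their calls. Of 21 counted homeobox genes outside the KNOX list 4 were stem-high and 1 was root-high. HB34 (GRMZM2G002915) was the most abundant of the stem-high ones, with 179 FPKM in stem control and 33.7 FPKM in root control, and it had 14.01 FPKM in stem drought and 72.1 FPKM in root drought. HB39 (GRMZM5G832409) was listed at 0 in both stem libraries and had 8.97 FPKM in root control and 8.24 FPKM in root drought. Of 26 counted SBP-box, GRF and GIF genes, GRF5 and GRF6 were stem-high at log2 values of 2.56 and 2.01. Only 1 was called with no scaling or with the same FPKM sum, and in the drought pair GRF6 was stem-high and GRF5 within 4-fold. GRF factors promote cell proliferation in young leaves. The pyrophosphatase gene vpp1 was the only one of 5 counted proton pump genes to be called, and none was with the same FPKM sum.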
